A study of Mus musculus with 4 samples.

Results

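The 10 endothelial cell genes described here are Kdr, Flt1, Tek, Tie1, Pecam1, Cdh5, Emcn, Eng, Sox17 and Sox18, and they were chosen by name as established genes of the cells that line blood vessels. All 10 were found by symbol among the 40999 features listed in the deposited gene tables. RNA was profiled in gonads of C57BL/6J wild-type mouse embryos at daily intervals between E11.5 and E14.5 (4 time points), without any treatment. Each time point is 1 library, made from total RNA of XX and XY gonads from a pair of litters pooled together, so the sexes cannot be told apart and no time point has a replicate. The genital ridge was sequenced together with the adjoining mesonephros at E11.5, whereas the later gonads were separated from it.

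Blood vessels reach the fetal gonad while it forms, in part from the vascular plexus of the neighbouring mesonephros, and in the XY gonad migrating endothelial cells build an artery along its outer edge. VEGF drives the growth of vessels through the receptors encoded by Kdr and Flt1. The angiopoietins act through the receptor encoded by Tek, whose partner is encoded by Tie1. Junction proteins hold endothelial cells to each other, and SOXF transcription factors take part in setting up arterial and lymphatic vessels.

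Libraries held between 25593453 and 31752562 deduplicated counts, and 3 counts, the upper limit that a count of 0 allows, were 0.0945 to 0.117 CPM (counts per 1 M of the library's counts). Ribosomal RNA, nuclear and mitochondrial together, took 8.72% to 17.7% of the counts up to E13.5 and 48.9% at E14.5. Levels are given as CPM, or per kilobase of exon as RPKM, after TMM scaling over the 4 libraries, and log2 fold changes after TMM scaling of the pair (later minus earlier library). TMM sets the bulk of genes equal between libraries, and scaling by total counts in its place put the median log2 fold change of all genes at -1.07 for E14.5 versus E13.5, -1.04 for E14.5 versus E12.5 and 0.16 for E12.5 versus E11.5, so every difference is relative to the bulk of genes. A gene was called at |log2 fold change| ≥ 1 and FDR ≤ 0.05 in edgeR's exact test with a preset biological coefficient of variation of 0.1. Without replicates this test compares the libraries and not the time points, and all intervals (95%) cover counting error only.

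None of the 10 genes was called in any of the 4 comparisons. Of all genes tested, 14.3% were called for E12.5 versus E11.5, 1.88% for E13.5 versus E12.5, 4.87% for E14.5 versus E13.5 and 7.90% for E14.5 versus E12.5. These comparisons share libraries and are not independent of each other. The 10 genes together had 17175, 15069, 14816 and 6686 counts from the earliest to the latest library, and their summed level was 501.5, 480.6, 374.6 and 355.4 TMM-scaled CPM. On this scale the sum was lower in each later library than in the one before, and the largest step lay between E12.5 and E13.5. In bulk tissue, fewer endothelial cells and less RNA per endothelial cell cannot be told apart.

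Their summed share of all counts was 0.0549%, 0.0589%, 0.0467% and 0.0212% from E11.5 to E14.5, with Wilson intervals that did not overlap. At E14.5, rRNA held 48.9% of all counts, and rRNA with the top 10 genes of every library 58.2%. Removal of rRNA alone was not tested. With 49 genes removed, namely all rRNA genes and the top 10 of every library, the shares were 0.0730% (Wilson interval 0.0719–0.0741), 0.0699% (0.0688–0.0711), 0.0550% (0.0542–0.0559) and 0.0507% (0.0495–0.0519). On that base no interval overlapped the next, and E14.5 stood close to E13.5.

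**Figure D1:**
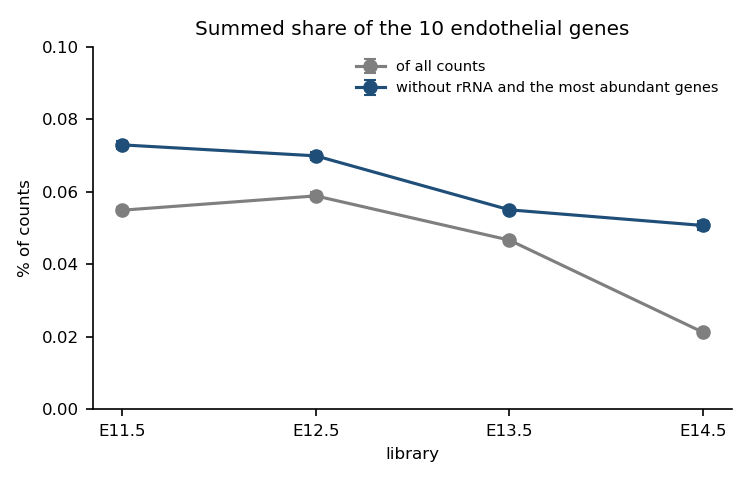
Summed share of the 10 endothelial genes (y axis, % of counts) in the 4 libraries (x axis), over all counts in grey and with the rRNA genes and the top 10 genes per library removed in blue, with Wilson 95% intervals that are mostly smaller than the points. Over all counts the share reached 0.0212% at E14.5, and without the abundant RNAs it was 0.0507%.

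Among the VEGF receptors, Kdr (chromosome 5, 75933265 to 75978428, minus strand, mm10), which encodes the main signalling receptor VEGFR2, had 4510, 3287, 3180 and 1332 counts from E11.5 to E14.5. Its level was 24.1, 19.2, 14.7 and 12.98 TMM-scaled RPKM, lower in each later library. The log2 fold change was -0.33 (exact Clopper-Pearson interval -0.39 to -0.26) for E12.5 versus E11.5 and -0.55 (-0.65 to -0.46) for E14.5 versus E12.5. Flt1 (chromosome 5, 147562196 to 147726445, minus strand), whose product VEGFR1 binds VEGF tightly and signals weakly, had 1084, 910, 910 and 415 counts. Its level was 4.35, 3.99, 3.16 and 3.03 RPKM, lower in each later library as for Kdr but over a narrower range. For E12.5 versus E11.5 the interval of Flt1 included 0 (-0.12, interval -0.25 to 0.0040), and this difference turned to 0.04 with total counts. For E14.5 versus E12.5 Flt1 differed by -0.38 (-0.56 to -0.22).

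Per length, Kdr stood 5.55 times (5.20–5.94) above Flt1 at E11.5, and 4.82 times (4.48–5.19), 4.66 times (4.33–5.03) and 4.28 times (3.83–4.79) in the 3 later libraries. Such a ratio within a library does not depend on scaling. The E11.5 interval lay above those of the 3 later libraries, narrowly so for E12.5, and the 3 later intervals overlapped.

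The angiopoietin receptor gene Tek (chromosome 4, 94739081 to 94874951, plus strand), also called TIE2, had 1059 counts at E11.5 and 628, 661 and 306 in the later libraries. Its level was 6.31 RPKM at E11.5 and 4.09, 3.41 and 3.32 RPKM thereafter, so the E11.5 library stood apart from the other 3. Tek differed by -0.63 (-0.77 to -0.48) for E12.5 versus E11.5 and passed the FDR there, but not the fold threshold. Tie1 (chromosome 4, 118471191 to 118489849, minus strand), the orphan partner receptor of TIE2, had 1712, 1322, 1108 and 430 counts and a level of 12.9, 10.9, 7.22 and 5.89 RPKM. It was lower in each later library, and its differences for E13.5 versus E12.5 (-0.59, interval -0.71 to -0.48) and E14.5 versus E12.5 (-0.87, interval -1.03 to -0.71) were the lowest of the 10 genes. Tie1 passed the FDR for E14.5 versus E12.5 and missed the fold threshold, which its counting interval included.

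The 2 TIE genes were not parallel. Tie1 stood 2.04 times (1.89–2.21) above Tek per length at E11.5, and 2.66 times (2.42–2.93), 2.12 times (1.92–2.33) and 1.77 times (1.53–2.06) in the 3 later libraries. The E12.5 ratio lay above the intervals of the other 3 libraries.

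Of the junction genes, Cdh5 (chromosome 8, 104101613 to 104144504, plus strand), which encodes VE-cadherin of the adherens junctions, had 3618, 3846, 3597 and 1747 counts. It had the highest level of the 10 genes per length in all 4 libraries, 26.1, 30.4, 22.5 and 23.0 RPKM. Cdh5 was higher at E12.5 than at E11.5 (0.22, interval 0.15 to 0.28) and lower at E13.5 than at E12.5 (-0.43, interval -0.50 to -0.37). Between E13.5 and E14.5 it differed by 0.05 (-0.04 to 0.13), and by -1.03 with total counts.

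Pecam1 (chromosome 11, 106654217 to 106750623, minus strand), which encodes the adhesion molecule CD31, had 1844, 2199, 2212 and 861 counts and a level of 12.1, 15.7, 12.54 and 10.3 RPKM. The E12.5 library was the highest and the E14.5 library the lowest. Pecam1 differed by 0.38 (0.29 to 0.47) for E12.5 versus E11.5 and by -0.60 (-0.72 to -0.49) for E14.5 versus E12.5, where it passed the FDR and not the fold threshold. Fetal germ cells, platelets and leukocytes also carry CD31. Of 15 germ cell genes, 14 could be tested for E12.5 versus E11.5 and 11 were called higher (7.16% of all genes), with a summed level of 77.1, 427.9, 532.9 and 492.3 TMM-scaled CPM, and Stra8 alone of the list was at 0 counts, at E11.5. The 14 haematopoietic and platelet genes summed to 119.6, 95.3, 97.6 and 89.3 CPM, none at 0. Runx1 alone held 38.2, 48.5, 59.8 and 42.5 CPM of this sum. Of the 14, 6 were called lower at E12.5 than at E11.5 (7.15% of all genes), 4 at a coefficient of variation of 0.2 and 0 at 0.4. Between E12.5 and E13.5, 3 were called lower, beside 116 of all 19152 genes, and 0 higher. They were Itga2b (206 to 119 counts), Pf4 (122 to 46) and Ppbp (114 to 36). Only Ppbp kept its call at a coefficient of variation of 0.2, and none did at 0.4. E14.5 versus E12.5 had 3 calls lower (1.45% of all genes) and 2 higher (6.45%). What part these cells had in the Pecam1 counts was not tested. Without Pecam1 the median of the other 9 genes was -0.12 for E12.5 versus E11.5, against -0.11 with it.

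**Figure D2:**
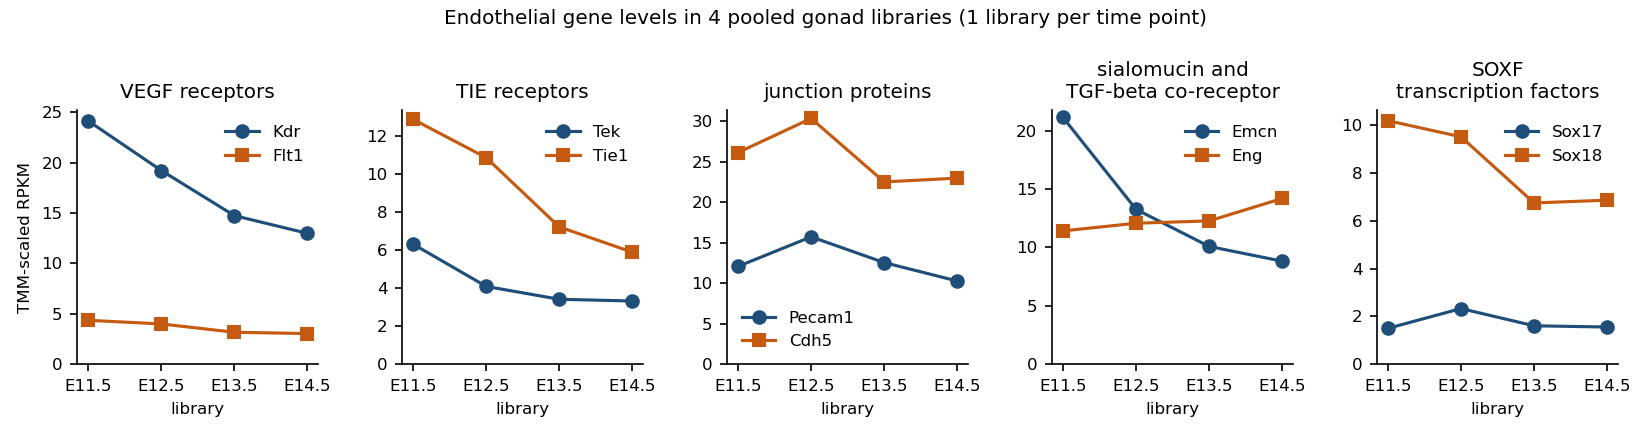
Level of each endothelial gene (y axis, TMM-scaled RPKM from 0, a separate scale in each panel) in the 4 libraries (x axis, 1 library per time point and therefore no error bars), in panels by role. Kdr, Flt1, Tek, Tie1 and Emcn were lower in each later library, Eng was higher in each later library, and Pecam1, Cdh5 and Sox17 were highest at E12.5. Not every step was beyond counting error. For Eng only E14.5 versus E13.5 had an interval that excluded 0, and in that comparison the intervals of Flt1, Tek and Emcn included 0.

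Emcn and Eng differed in their course. Emcn (chromosome 3, 137341062 to 137431069, plus strand) encodes endomucin, a sialomucin found mainly on capillary and venous endothelium, and had 1069, 614, 589 and 245 counts. Its level was 21.1, 13.3, 10.1 and 8.82 RPKM, so the E11.5 library was 2.40 times the E14.5 library, the widest range of the 10 genes. Emcn differed by -0.67 (-0.82 to -0.53) for E12.5 versus E11.5, the lowest value of the 10 genes in that comparison, and passed the FDR but not the fold threshold. At E14.5 versus E13.5 the interval included 0 (-0.18, interval -0.40 to 0.04).

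Eng (chromosome 2, 32646532 to 32682669, plus strand) encodes endoglin, the co-receptor for TGF-beta family ligands, and had 1449, 1403, 1799 and 990 counts. Its level was 11.4, 12.1, 12.3 and 14.2 RPKM, the narrowest range of the 10 genes, with E14.5 1.24 times E11.5. For E12.5 versus E11.5 the interval of Eng included 0 (0.08, interval -0.03 to 0.19). Eng was the only 1 of the 10 above 0 for E13.5 versus E12.5 (0.02, interval -0.08 to 0.12) and for E14.5 versus E12.5 (0.25, interval 0.13 to 0.36), and with total counts the second value became -0.80. For E14.5 versus E13.5 it was 0.23 (0.11 to 0.34), and -0.85 with total counts. Eng shares 61 exon bases with Fpgs on the opposite strand, which had 441, 554, 695 and 303 counts, and the libraries were stranded.

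The ratio of Eng to Emcn per length, which no scaling alters, was 0.540 (0.499–0.585) at E11.5, and 0.910 (0.828–1.003), 1.22 (1.11–1.34) and 1.61 (1.40–1.86) in the 3 later libraries. No interval overlapped another. Endoglin is also made by stromal and perivascular cells, and the summed level of 9 pericyte genes was 384.9, 309.6, 372.1 and 447.5 CPM, with Higd1b at 0 counts in 3 libraries and 1 count at E13.5. Of the 8 pericyte genes tested for E12.5 versus E11.5, Cspg4 was called higher (735 to 1593 counts, 1.24, beside 7.16% of all genes) and Rgs5 lower (1136 to 117 counts, -3.15, beside 7.15%). Rgs5 was also the 1 of 8 called for E14.5 versus E13.5 (168 to 162 counts, 1.04, beside 4.28% of all genes called higher) and for E14.5 versus E12.5 (117 to 162 counts, 1.22, beside 6.45%), and both calls were lost at a coefficient of variation of 0.2 and with total counts, which gave -0.04 and 0.17. The median of the 8 for E14.5 versus E12.5 was 0.70, which became -0.35 with total counts. The part of these cells in the Eng counts was not tested.

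The SOXF genes had the lowest counts. Sox17 (chromosome 1, 4490928 to 4497387, minus strand), known in arterial endothelium, had 265, 377, 328 and 151 counts and the lowest level of the 10 genes in each library, 1.496, 2.32, 1.60 and 1.55 RPKM. The E12.5 library stood above the other 3. Sox17 differed by 0.64 (0.41 to 0.87) for E12.5 versus E11.5, the highest value of the 10 genes, and passed the FDR without reaching the fold threshold, and it differed by -0.54 (-0.76 to -0.32) for E13.5 versus E12.5. The annotation places 837 exon bases of Gm37587 on the opposite strand of Sox17. Sox18 (chromosome 2, 181669837 to 181671640, minus strand), known for its part in lymphatic vessel formation, had 565, 483, 432 and 209 counts and a level of 10.2, 9.51, 6.75 and 6.86 RPKM. Its difference for E12.5 versus E11.5 included 0 (-0.10, interval -0.28 to 0.08) and became 0.06 with total counts. For E13.5 versus E12.5 Sox18 differed by -0.50 (-0.69 to -0.31). Per length, Sox18 stood 6.81 times (5.88–7.91) above Sox17 at E11.5, and 4.09 times (3.57–4.70), 4.21 times (3.64–4.87) and 4.42 times (3.57–5.49) in the 3 later libraries, so the E11.5 interval lay above the others.

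The order of the levels per length began with Cdh5 and ended with Sox17 in every library. At E11.5 Kdr and Emcn followed Cdh5, and Tie1, Pecam1 and Eng came next, with counting intervals of neighbouring ratios that included 1. At E12.5 Kdr and Pecam1 followed Cdh5, and neither Emcn and Eng nor Tek and Flt1 could be told apart. At E13.5 the neighbours that could not be separated were Pecam1 and Eng, Tie1 and Sox18, and Tek and Flt1. At E14.5 Eng stood second, 1.09 times (1.01–1.19) above Kdr, after having been the sixth at E11.5, and neither Sox18 and Tie1 nor Tek and Flt1 could be separated.

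Composition within the 10 genes was compared as each gene's share of their summed counts, which is free of scaling. Eng moved from 8.44% (Wilson interval 8.03–8.86) at E11.5 to 9.31%, 12.1% and 14.8% (13.98–15.7). Kdr held 26.3% (25.6–26.9) at E11.5 and 21.8%, 21.5% and 19.9% (19.0–20.9) in the later libraries. Tie1 held 9.97% at E11.5 and 8.77%, 7.48% and 6.43% afterwards. Cdh5 held 21.1% (20.5–21.7) at E11.5 and 25.5%, 24.3% and 26.1% (25.1–27.2) later. Pecam1 held 10.7% at E11.5 and 14.6%, 14.9% and 12.9% later, and Sox17 1.54% and then 2.50%, 2.21% and 2.26%. Kdr and Tie1 thus made up less of the sum in the later libraries than at E11.5, and Eng, Cdh5, Pecam1 and Sox17 more. The Eng intervals at E11.5 (8.03–8.862) and E12.5 (8.857–9.785) overlapped slightly. Emcn held 6.22% (5.87–6.60) at E11.5 and 4.08%, 3.98% and 3.66% later, and Tek 6.17% (5.82–6.54) at E11.5 and 4.17%, 4.46% and 4.58% later. For both, the difference lay between E11.5 and the 3 other libraries, whose intervals overlapped. Flt1 stayed between 6.04% and 6.31% and Sox18 between 2.92% and 3.29%, with overlapping intervals throughout.

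**Figure D3:**
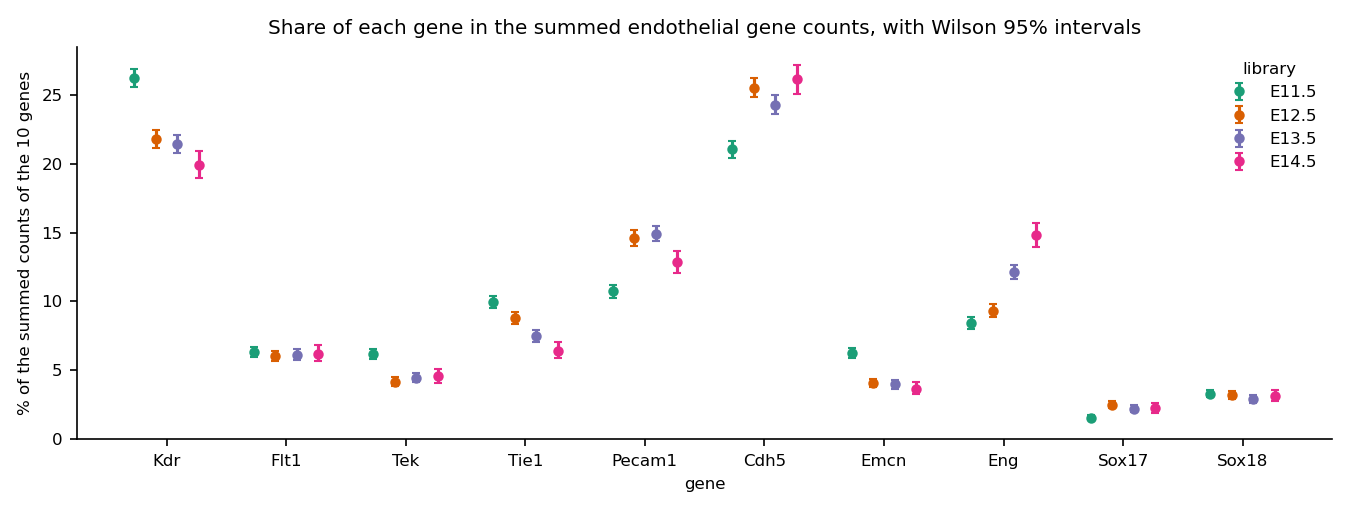
Share of each gene in the summed counts of the 10 endothelial genes (y axis, %) for each gene (x axis) in the 4 libraries (colours), with Wilson 95% intervals. The share of Eng went from 8.44% to 14.8%, that of Cdh5 from 21.1% to 26.1%, that of Kdr from 26.3% to 19.9%, and Flt1 stayed near 6.2%.

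For E12.5 versus E11.5 the question was what distinguished the gonad during sex determination from the earlier ridge. The 10 genes spread to both sides, with 6 below 0 (50.4% of all genes) and 4 above and a median of -0.11, against -0.0041 over the 19215 genes tested. Counting intervals excluded 0 for 7 genes. Kdr, Tek, Tie1 and Emcn were lower, where 28.0% of all genes had such an interval, and Pecam1, Cdh5 and Sox17 were higher, where 28.3% of all genes did. At an FDR of 0.05 and any fold, 3 of the 10 passed against 21.3% of all genes. The mesonephros was sampled at E11.5 only, and 12 mesonephric tubule and duct genes summed to 288.2 CPM at E11.5 and to 71.6, 64.1 and 66.8 CPM later, none of them at 0 counts, with 9 of 12 called lower at E12.5, where 7.15% of all genes were. Vessels of the mesonephros and of the ridge cannot be told apart in the E11.5 library.

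For E13.5 versus E12.5, with the same dissection in both libraries, 9 of the 10 genes were below 0, where 49.7% of all genes were. The median was -0.39, against 0.0017 over all 19152 genes tested, and it remained between -0.39 and -0.26 under the 4 alternative scalings. The 9 genes had counting intervals that excluded 0, where 18.5% of all genes had an interval below 0. None passed the FDR at any fold, which 2.83% of all genes did.

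For E14.5 versus E13.5 the median was -0.04, against 0.0051 over all 18992 genes tested, with 7 genes below 0, where 49.2% of all genes were. Intervals lay below 0 for Kdr, Tie1 and Pecam1 (17.6% of all genes) and above 0 for Eng (19.3%). With total counts, 9 of the 10 genes would be called lower, beside 58.6% of all genes. For E14.5 versus E12.5 the median was -0.51, against 0.0076 over all 18704 genes tested, and 9 genes lay below 0, where 49.0% of all genes were. With total counts 9 of the 10 would be called lower there as well, beside 52.7% of all genes. All 10 intervals excluded 0, below it for 9 genes (22.9% of all genes) and above it for Eng (24.1%). Pecam1 and Tie1 passed the FDR at any fold, which 11.2% of all genes did.

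**Figure D4:**
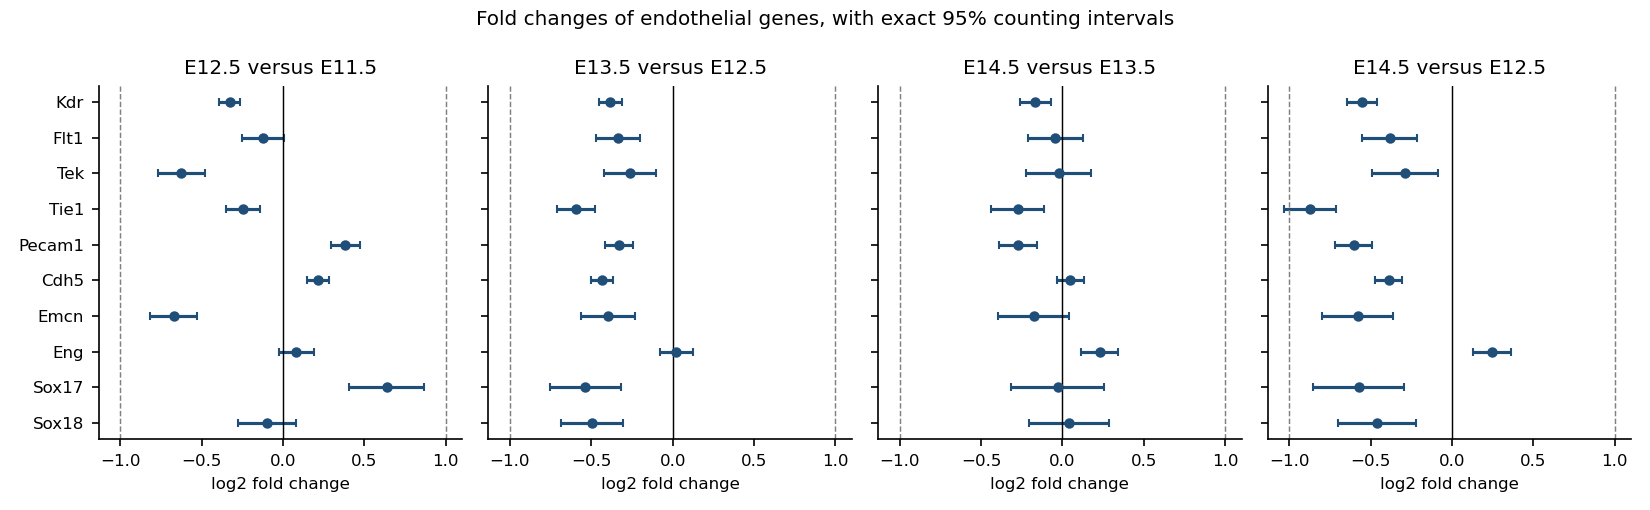
Log2 fold change of each endothelial gene (x axis, later minus earlier library, TMM scaling of the pair) in 4 comparisons (panels), with exact Clopper-Pearson 95% counting intervals and dashed lines at the fold threshold of 1 in either direction. No point lies past a dashed line, 9 of the 10 genes lie below 0 for E13.5 versus E12.5, and Tie1 comes nearest to the threshold with -0.87 for E14.5 versus E12.5.

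Other pan-endothelial genes, 28 in number and all in the files, gave a median of -0.22 for E12.5 versus E11.5, -0.40 for E13.5 versus E12.5, -0.07 for E14.5 versus E13.5 and -0.53 for E14.5 versus E12.5. Their summed level was 713.0, 572.6, 473.6 and 468.6 CPM, lower in each later library, with E14.5 close to E13.5. For E14.5 versus E12.5, 20 of 27 tested lay below 0, where 49.0% of all genes did, and the highest value was 0.74. Acvrl1, S1pr1 and Rhoj were highest at E14.5, as Eng was. They stood at 27.3, 29.0 and 33.6 CPM there, against 18.9, 26.5 and 20.3 CPM at E12.5. Only Etv2, an early endothelial factor, reached 0 counts, at E14.5. Of the 28 tested for E12.5 versus E11.5, 3 fell and none rose, where 7.15% of all genes were called lower. Plvap, which encodes the diaphragm protein of fenestrated capillaries, went from 2079 to 706 counts (-1.43, interval -1.56 to -1.31). Calcrl, the receptor gene for adrenomedullin, went from 2445 to 1048 counts (-1.09), and Fli1, an ETS factor, from 1786 to 774 (-1.08). The calls of Calcrl and Fli1 were lost with total counts and at a coefficient of variation of 0.2. For E14.5 versus E12.5 only Sox7, the third SOXF gene, fell among 27 tested (1.45% of all genes), from 732 to 197 counts (-1.14), and not at a coefficient of variation of 0.2. In the other 2 comparisons none of 27 was called.

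Arterial and tip cell genes, 14 in number, split at E12.5. Compared with E11.5, 4 rose, where 7.16% of all genes did. Gja5, the connexin 40 gene of arteries, went from 136 to 456 counts (1.87), and Gja4, the connexin 37 gene, from 129 to 266 (1.17). Apln, the apelin gene, went from 116 to 221 (1.06), and Dll4, a Notch ligand of arteries and tip cells, from 197 to 361 (1.001). Gja5 kept its call at a coefficient of variation of 0.2 and lost it at 0.4, and the other 3 lost theirs at 0.2. Angpt2 and Nrp1 fell, where 7.15% of all genes did. Angpt2, whose product antagonises TIE2 in many settings, went from 163 to 8 counts (-4.20), and Nrp1, a VEGF co-receptor gene with wider expression, from 6101 to 2248 (-1.31).

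For E14.5 versus E12.5, 5 of 13 arterial and tip cell genes fell (1.45% of all genes) and 1 rose, Angpt2 (6.45%). Gja5 went from 456 to 110 counts (-1.30), Gja4 from 266 to 71 (-1.16), Dll4 from 361 to 97 (-1.15) and Hey1, a Notch target, from 859 to 244 (-1.07), and the fifth was Esm1, from 95 to 22 (-1.36), which had under 100 counts and is named after its values were seen. None of these 5 kept its call at a coefficient of variation of 0.2. Per length, Gja5 was at 1.25, 4.57, 3.25 and 1.84 RPKM in the 4 libraries and Dll4 at 1.64, 3.28, 2.56 and 1.47 RPKM. Both were highest at E12.5, as were Gja4, Hey1 and Esm1 of this list, and Sox17 and Cdh5. Notch4 (2.827 RPKM at E11.5 and 2.897 at E12.5) and Cxcr4 (6.835 RPKM at E12.5 and 6.804 at E13.5) were highest there by a small margin only. The rest of the list had no such peak. Efnb2 (28.6, 22.8, 19.2 and 16.6 RPKM), Nrp1, Unc5b, Hey2, Bmx and Angpt2 were highest at E11.5, and Apln at E14.5.

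Among 6 venous genes none was called, and the median was -0.74, -0.26, 0.04 and -0.22 in the 4 comparisons. All 6 were below 0 for E12.5 versus E11.5, from -0.88 for Nr2f2 to -0.26 for Ephb4. Nr2f2, which encodes the venous factor COUP-TFII and is also made by stromal cells, had 18690, 9321, 11190 and 6057 counts. Of 5 lymphatic endothelial genes, 4 were tested, and for E12.5 versus E11.5 the podoplanin gene Pdpn rose (1.13, beside 7.16% of all genes) while Prox1, the regulator of lymphatic identity, fell (-1.09, beside 7.15%). Both calls were lost at a coefficient of variation of 0.2, and that of Prox1 also with total counts (-0.93). Lyve1 fell as well, from 47 to 12 counts, which is under the 100 counts set for naming. No lymphatic gene was called later, and Ccl21a had 2 counts or fewer in every library.

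**Figure D5:**
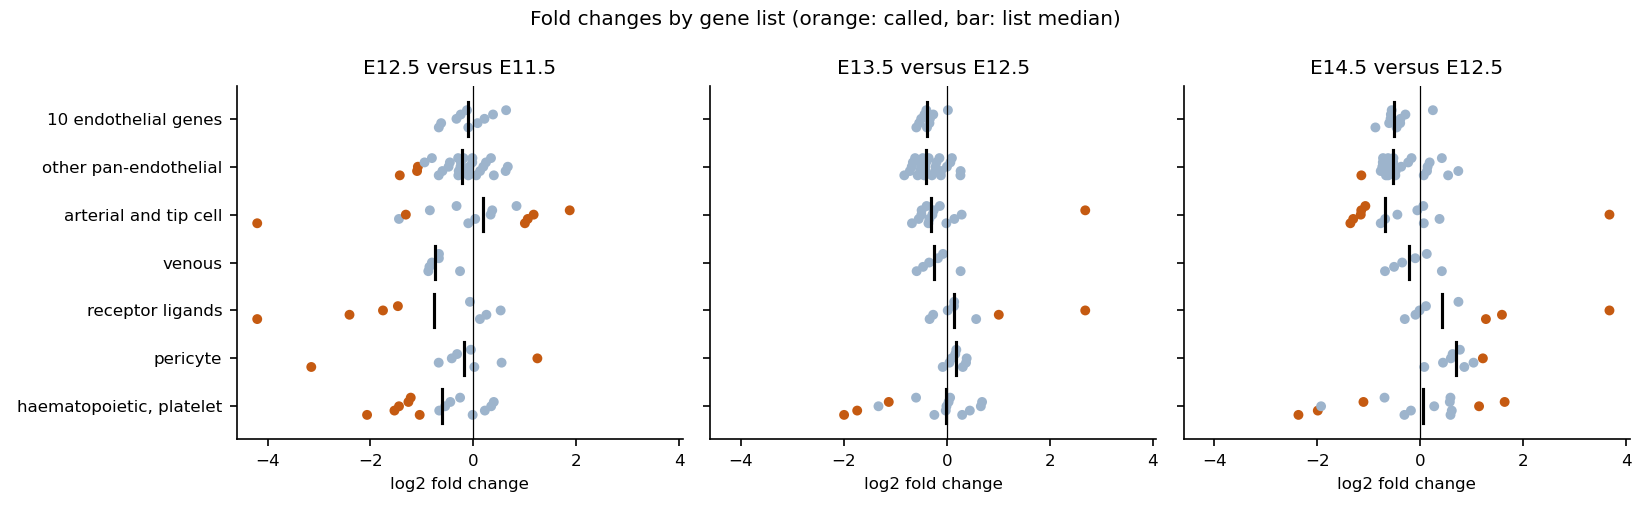
Log2 fold change of every tested gene (points, orange where called) in 7 gene lists (y axis) for 3 comparisons (panels, x axis later minus earlier library), with black bars at the list medians. None of the 10 endothelial genes is orange, and for E12.5 versus E11.5 the arterial and tip cell list has 4 called genes on the right and 2 on the left. Angpt2 is in both the arterial and the ligand list.

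Ligand genes of the VEGF and angiopoietin families, and of endoglin, were measured beside Kdr, Flt1, Tek and Eng. Whether each listed ligand acts on these receptors in the mouse was not tested. Vegfa, the main ligand of Kdr and Flt1, had 3691, 3226, 4126 and 1559 counts and a level of 25.8, 24.7, 24.99 and 19.9 RPKM, and was not called in any comparison. Of the 8 ligand genes tested for E12.5 versus E11.5, 4 fell, where 7.15% of all genes did. Angpt1, the activating ligand of TIE2, went from 1131 to 195 counts (-2.41), and Pgf, a ligand of Flt1, from 196 to 53 (-1.76). Vegfc, the lymphatic growth factor gene, went from 260 to 86 (-1.47), beside Angpt2 above. Angpt1 and Tek were thus both highest at E11.5, with Angpt1 at 7.51, 1.41, 1.18 and 1.39 RPKM.

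For E13.5 versus E12.5, where 1.27% of all genes rose, Angpt2 rose from 8 to 66 counts (2.69), both low numbers, and Pgf from 53 to 135 (1.01), whose call was lost at a coefficient of variation of 0.2. For E14.5 versus E12.5, 3 of 8 ligand genes rose (6.45% of all genes), Angpt2 (8 to 62 counts, 3.68), Pgf (53 to 95 counts, 1.59) and the VEGF-D gene, listed as Figf (267 to 385 counts, 1.28). With total counts Pgf and Figf would differ by 0.54 and 0.23 and not be called, and Figf was not called at a coefficient of variation of 0.2 either. No ligand gene was called for E14.5 versus E13.5. Gdf2 and Bmp10, whose products bind endoglin, had 2 counts or fewer in each library.

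Profiles over the 4 libraries were compared as log2 TMM-scaled CPM centred on the mean of each gene. The median of the 10 genes was 0.30, 0.19, -0.21 and -0.27 in order of age. Flt1 lay closest to it, with a root mean square difference of 0.026 over the 4 libraries, and Sox18 next with 0.042. Eng (0.34), Sox17 (0.29) and Emcn (0.27) lay farthest. Among 11630 other genes, none with under 100 counts in any library, those most like the median were Ezr (0.014), which encodes the membrane linker ezrin, the RNA-binding protein gene Nova2 (0.029), and the histone genes Hist2h2ac (0.029), Hist2h2bb (0.031) and Hist1h3g (0.034). Ezr had 1674, 1435, 1345 and 617 counts. Histone genes have near-identical copies between which reads can be split, so their values are uncertain, and likeness over 4 libraries is only a description.

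Promoter windows were available from RefSeq (GRCm38.p6, the mm10 assembly) for Kdr, Flt1, Tek, Tie1, Emcn and Eng, 6 of the 10 genes. The 250 bases before the start that RefSeq gives are shown for Kdr, which had the higher level of the VEGF receptors, and for Emcn, which had the widest range over the libraries. Starts differ between annotations, so 3 bases of the Kdr window and 16 of the Emcn window lie inside annotated exons. Capitals mark the ETS core letters GGAAG or their reverse complement CTTCC.
Kdr, chr5:75978456-75978705, minus strand: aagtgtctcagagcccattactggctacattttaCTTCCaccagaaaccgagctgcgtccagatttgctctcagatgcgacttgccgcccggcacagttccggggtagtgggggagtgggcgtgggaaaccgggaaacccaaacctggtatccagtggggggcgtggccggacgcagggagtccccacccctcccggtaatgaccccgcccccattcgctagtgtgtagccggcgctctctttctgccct
Emcn, chr3:137340828-137341077, plus strand: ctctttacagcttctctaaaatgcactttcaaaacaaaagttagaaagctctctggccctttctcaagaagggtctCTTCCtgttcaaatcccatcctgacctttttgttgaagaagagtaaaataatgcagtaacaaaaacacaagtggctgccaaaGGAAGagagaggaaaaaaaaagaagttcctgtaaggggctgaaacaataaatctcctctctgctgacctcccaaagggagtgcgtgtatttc
The Kdr window had 1 such match and the Emcn window 2, at GC contents of 61.6% and 40.8%. Matches were also found in the windows of Eng (2), Flt1 (3) and Tie1 (6) and not in that of Tek, so 5 of 6 windows held one, beside 63.6% of 27025 promoters of this length. At least 6 matches, the number in Tie1, were found in 0.326% of promoters. The SOX letters AACAAT or ATTGTT stood in the windows of Emcn and Tek, beside 9.65% of promoters, and the GATA letters AGATAA or TTATCT in none of the 6, beside 10.2%. Much of some windows lies inside annotated exons, namely 63 of 250 bases for Eng, 208 for Tek, 212 for Tie1 and all 250 for Flt1, so for these genes the letters are in part those of transcribed sequence. Such a match describes letters in a window and is not a shown binding site, and the short windows leave out enhancers.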

How the data were processed

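RNA from 4 pooled gonad libraries was analysed, and the samples were assigned to time points by their labels. The authors depleted rRNA, built stranded libraries with UMIs, aligned reads to mm10 with STAR, removed duplicates with UMI-tools and used featureCounts to obtain counts of each gene, which were analysed as deposited. The deposited RPKM and TPM values are the authors' conversions of these counts by exon length and library total. Tool versions, the annotation release and the handling of multi-mapping reads are not given in the sources used here.

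Genes were filtered by filterByExpr, scaled by TMM and tested with edgeR 4.0.16 (R 4.3.3) with the dispersion preset to 0.01 (coefficient of variation 0.1). With replicates absent, the spread between samples is not measured and each call rests on this value. Log2 fold changes used a prior count of 0.125. The test was run on simulated data with 200 changed genes. These data were drawn with the same preset dispersion and with no shift in abundant RNAs, so the run cannot show whether the dispersion or the scaling is right. Shares carry Wilson 95% intervals, and fold changes and ratios exact Clopper-Pearson intervals. Libraries held 25593453 to 31752562 counts. UMIs remove PCR copies, and the intervals leave out variation between embryos and preparations.

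The 10 genes and the other lists were chosen with earlier results of these data known. All 10 are named. The rule for the other lists was to name called genes that reached 100 counts in either library, at most 6 per comparison, genes of high counts, and the 5 genes with the most similar profile. It was followed for the called genes of the vascular, ligand and pericyte lists. Not every gene of high counts in them is described, for example Pdgfrb and Notch3. Some genes that were not called are named for their course over the libraries, after their values were seen. The lists of other cell types are given mainly by counts. Esm1, Lyve1, Bmx, Angpt2 after E12.5 and Pgf at E14.5 had under 100 counts and are named after their values were seen. Flt4, Vwf, Angpt2 and Tfrc were each in 2 lists, Tfrc in the erythroid and the housekeeping list. Housekeeping genes (15) had no calls and medians of 0.08, -0.00, -0.01 and 0.03 in the 4 comparisons. Erythroid genes (12 of 13 found) had 3 calls higher and 2 lower for E12.5 versus E11.5, and 12 gonadal supporting and steroidogenic genes 11 higher, beside 7.16% of all genes called higher and 7.15% lower. Alternatives were coefficients of variation of 0.2 and 0.4, fold change alone, DESeq2 1.42.0 size factors, total counts, TMM over 4 libraries without abundant RNAs, 2 other filters, a prior count of 2, TPM ratios and the list without Pecam1.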

Additional observations from a re-analysis of the deposited data

How the results depend on the processing

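For the 10 genes, scaling was the setting that changed calls or signs. For the other lists the preset variability did so as well. At a coefficient of variation of 0.2 the arterial calls for E12.5 versus E11.5 went from 4 higher to 1, those for E14.5 versus E12.5 from 5 lower to 0, and the other pan-endothelial calls for E12.5 versus E11.5 from 3 to 1. At 0.4 the arterial calls for E12.5 versus E11.5 were 0 higher and 1 lower, and the other pan-endothelial calls 0. Of the 4 ligand calls there 1 was left, and none for E13.5 versus E12.5 or E14.5 versus E12.5. Cspg4 was not called at 0.4 either. With total counts, 9 of the 10 genes were called lower for E14.5 versus E13.5 (58.6% of all genes) and 9 for E14.5 versus E12.5 (52.7%). With ratios of the deposited TPM, called by fold alone, 10 and 10 were lower, beside 16967 of 18978 and 15444 of 18683 genes. Neither scaling corrects for the abundant RNAs, rRNA among them, in the E14.5 library. Median log2 fold changes of the 10 genes with total counts were 0.0495 for E12.5 versus E11.5, -1.12 for E14.5 versus E13.5 and -1.56 for E14.5 versus E12.5. With TPM ratios they were 0.17, -1.67 and -2.01, and -0.26 for E13.5 versus E12.5. Signs turned for Flt1 (0.0364 with total counts, 0.16 with TPM), Sox18 (0.0626 and 0.19) and Tie1 (0.0398 with TPM) at E12.5 versus E11.5. For E14.5 versus E13.5 they turned for Cdh5 (-1.03 and -1.59), Eng (-0.85 and -1.41) and Sox18 (-1.04 and -1.59), and for E14.5 versus E12.5 for Eng (-0.80 and -1.26). Ratios between genes within a library do not depend on scaling.

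Coefficients of variation of 0.2 and 0.4, DESeq2 size factors, both other filters, a prior count of 2, fold change alone and the list without Pecam1 left 0 of the 10 genes called in each comparison. No paired analysis was possible because each time point has 1 library, and no replicate could be left out. Counting error was small at these depths, and the spread between embryos, litters and preparations was not measured.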
